A study of Homo sapiens with 6 samples.

Results

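The anaphase-promoting complex (APC/C) is a ubiquitin ligase that marks securin, mitotic cyclins and other cell cycle proteins for degradation, which allows sister chromatids to separate and cells to leave mitosis. A catalytic core of a RING subunit and a cullin subunit sits on a platform of large scaffold subunits, and an arm of subunits with tetratricopeptide (TPR) repeats holds the co-activators CDC20 and CDH1 that bring in the substrates. Many cancer cells divide with altered control of this complex, and alternative splicing (AS) can change the untranslated ends or the coding parts of its subunit mRNAs.

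AS events were analysed for 10 subunit genes: ANAPC11, ANAPC10, ANAPC5, ANAPC15, ANAPC7, CDC16, CDC23, CDC27, ANAPC13 and ANAPC16. The events are all rows of these genes in the 5 deposited tables of skipped exons (SE), mutually exclusive exons (MXE), alternative 3ʹ and 5ʹ splice sites (A3SS and A5SS) and retained introns (RI) that averaged at least 10 junction reads per library. This rule took 135 of the 141 rows listed for the genes, out of 78336 rows in all. They were 93 SE, 17 MXE, 15 A3SS, 5 A5SS and 5 RI events. The events were thus chosen by their read totals alone, and the genes were picked with results of these data already known. The 6 rows left out had a mean of 0.333 to 6.17 reads, and the 3 rows just inside had 10.5, 12.2 and 17.2 reads. ANAPC13, a small subunit of the TPR arm, had no row, so nothing was measured for it.

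The cells were NCI-H1975 (written NCl-H1975 in the labels), an established human lung adenocarcinoma line. Control cells received the empty PCDNA3.1 plasmid, and SAM68 cells received PCDNA3.1-SAM68, each at 2 µg per well with lipofectamine 2000 for 48 h. SAM68 is the RNA-binding splicing regulator encoded by KHDRBS1, and the comparison asked which splicing events change when it is overexpressed from a plasmid in addition to the cells' own gene. Each group had 3 libraries, and the lists of values in the tables carry no replicate numbers, so libraries are given in list order, and p-values measure the spread between these libraries. The SE table held 16951876 to 19737729 junction reads per library. KHDRBS1 itself had 311, 328 and 316 junction reads per 1000000 reads of the events that stood for the genes (rpm) in control and 1230, 1260 and 1276 rpm in SAM68 libraries. Its log2 fold change was 1.98 ± 0.05 (SE of the estimate; limma, adjusted p = 1.16e-21). Of the epithelial markers, KRT7, KRT8 and KRT18 were read. KRT8 was at 520 rpm in control library 1 and at 229 to 253 rpm in the other 5. KRT18 was at 471 to 492 rpm in control and 521 to 530 rpm in SAM68 libraries, and KRT7 at 3.02 to 4.48 rpm and 1.26 to 2.20 rpm (limma, adjusted p = 0.305 and 0.383). No event of endothelial or fibroblast markers was tested, and CD68 was the only leukocyte marker read. A gene was read only through a listed splicing event, so an unread marker says nothing about its expression. The same holds for the epithelial markers KRT19, EPCAM and CDH1.

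ANAPC11 (ENSG00000141552.17, chromosome 17, 81890790 to 81900991, + strand) encodes the RING subunit that, with the cullin subunit ANAPC2, transfers ubiquitin. Most of its events concern the 5ʹ untranslated part of the mRNA, where several first exons with different ends are spliced to an 84-base exon, a 63-base exon or a 120-base exon that holds the start codon. The 63-base exon and the 120-base exon (81894467 to 81894586) are exons 2 and 3 of the canonical GENCODE 44 transcript. The 84-base exon (81893104 to 81893187) is in 2 other transcripts, and 8 of its 54 words of 31 bases also occur elsewhere in the genome. The sequences of the 4 first exon ends are shown because the reads of these ends were what differed between libraries. Each line holds the last 20 exon bases in lower case and the first 10 intron bases in capitals (GRCh38, + strand), and the ends are named by their distance in nucleotides from the first of them.
End at 0 nt, chr17:81891814-81891843: cgctgccaacggaagggcggGTAGGGCGGT
End at 8 nt, chr17:81891822-81891851: acggaagggcgggtagggcgGTGCGTGATT
End at 30 nt, chr17:81891844-81891873: gcgtgattaggttggcgaagGTGCGAGGGC
End at 273 nt, chr17:81892087-81892116: ccgctgcagacgagctgcggGTTGGTTTTT
All 4 introns begin with GT. The end at 8 nt is that of the canonical transcript and is annotated in 6 transcripts, against 3 transcripts for the end at 0 nt, 4 for the end at 30 nt and 3 for the end at 273 nt. The 84-base and 120-base exons that they are joined to are shown with the last 20 intron bases in capitals and the first 10 exon bases in lower case.
84-base exon, chr17:81893084-81893113: CTGCAATCTCTGCCTCCCAGgtccaagtga
120-base exon, chr17:81894447-81894476: TCCTGTTCCCTCCGCCGCAGgctctgctgc

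Of the 135 events 1 passed the test, which asks for a change in the percent spliced in (PSI) of at least 10 points and an adjusted p under 0.05. It was the 84-base exon of ANAPC11 between the first exon that ends at 8 nt and the 63-base exon. PSI is the share of the form with the exon, after division of its reads by its effective length. Over all 66394 events tested, 17 passed, or were called (0.0256%). The PSI of this exon was 4.30%, 0.0% and 4.73% in control and 100% in every library with SAM68. The control mean was 3.01% ± 2.62 (SD, n = 3), and the rise was 97.0 points (quasi-binomial test with dispersions moderated by limma, adjusted p = 5.26e-07). The exact two-sided permutation test gave p = 0.1, the smallest that 3 against 3 libraries allow. The call was lost when any 1 of the 6 libraries was left out (adjusted p of 0.639 to 0.676) and when each event kept its own unmoderated dispersion (adjusted p = 0.585). A likelihood ratio test on pooled counts, which ignores the spread between libraries, called this event and 3 more of the 135, the same exon with 2 other first exon ends and an exon of ANAPC16, against 2.04% of all events. Of these 4 events 2 were higher in SAM68 cells, the exon with the ends at 8 nt and 30 nt, and 2 were lower, the exon with the end at 0 nt and that of ANAPC16.

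The skipping reads decided this value. They join the end at 8 nt directly to the 63-base exon and numbered 95, 113 and 86 in control and 0 in all 3 SAM68 libraries. Against a floor of 3 reads for the group they were at least 93.5-fold lower in SAM68 cells. The inclusion reads numbered 7, 0 and 7 in control and 27, 14 and 10 in SAM68 libraries. By counting error alone, a count of 0 still allows up to 5.88% of the 51 reads of the SAM68 libraries to be skipping reads. Nearly all inclusion reads join the 84-base exon to the 63-base exon and carry no mark of the first exon. In the event with the same first exon end, the same 84-base exon and the 120-base exon behind it, the inclusion reads were 0, 0 and 0 in control and 1, 1 and 0 in SAM68 libraries. That event thus listed few reads between this end and the 84-base exon, and a read that joins the 84-base to the 120-base exon in control library 2 was listed in other events and not in this one. The PSI of 100% in SAM68 libraries therefore rests mostly on reads without a mark of the end at 8 nt. SAM68 library 1 had 0 reads from this end to the 63-base or the 120-base exon. The rise of 97.0 points is thus no measure of the end.

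**Figure D1:**
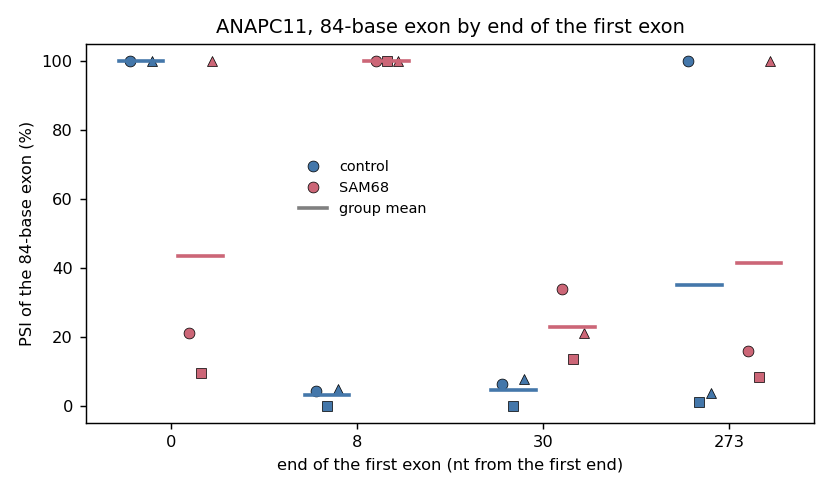
PSI in percent of the 84-base exon of ANAPC11 before the 63-base exon (y axis), by the end of the first exon in nucleotides from the first end (x axis). Points are libraries (circle, square and triangle in list order), lines are group means, and a library without reads has no point. At 8 nt the groups are at 0.0% to 4.73% and 100%, and at 0 nt and 273 nt the libraries of a group lie far apart.

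The same exon gave other values with other first exon ends. With the end at 30 nt its PSI was 6.27%, 0.0% and 7.73% in control and 33.9%, 13.5% and 21.0% in SAM68 libraries. The groups did not overlap, and the difference of 18.1 points did not pass the test over all events (quasi-binomial test, adjusted p = 0.202). With the end at 0 nt the control libraries held 7, 0 and 7 reads, all of the inclusion form. The control PSI was thus 100% in 2 libraries without a skipping read from this end. The SAM68 libraries were at 21.0%, 9.34% and 100%. The difference of -56.6 points (quasi-binomial test, adjusted p = 0.332) rests on those control values and is no measure of the end. With the end at 273 nt the PSI was 100%, 0.999% and 3.70% in control and 15.7%, 8.32% and 100% in SAM68 libraries (adjusted p = 0.565, quasi-binomial test). In 2 of the 4 cases libraries of 1 group lay at both extremes.

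When the 8 events of the 84-base exon were summed, its PSI was 5.42%, 0.637% and 4.07% in control and 21.9%, 8.91% and 18.6% in SAM68 libraries. The rise was 13.1 points in place of 97.0 (quasi-binomial test, adjusted p = 0.0429). The sum counts a read that joins the 84-base and the 63-base exon once for each first exon end. Its test therefore treats repeats of a read as separate reads, and its adjusted p is not a valid measure. Counted once, as the inclusion reads of the called event less those of the event before the 120-base exon, these reads were 7, 0 and 7 in control and 26, 13 and 10 in SAM68 libraries, or 1.21, 0.0 and 1.17 rpm against 4.10, 2.38 and 1.83 rpm. They were 2.10% ± 2.01 (SD, n = 3) of the reads that entered the 63-base exon from the 84-base exon or the 4 first exon ends in control cells and 15.6% ± 13.1 (SD, n = 3) in SAM68 cells. By library the shares were 4.0%, 0.0% and 2.31% in control and 11.6%, 4.96% and 30.3% in SAM68 cells, whose mean was 8.29% without SAM68 library 3. In that library only 23 reads entered the 63-base exon from the 4 ends, against 178 reads from the 63-base to the 120-base exon. Its share of 30.3% thus stands on few entering reads. All 3 SAM68 libraries lay above all 3 control libraries (exact permutation p = 0.1 for the share and for the rpm).

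The 4 first exon ends were read unevenly between libraries of the same group. From the end at 0 nt to the 63-base exon there were 0 reads in each control library and 62, 77 and 0 reads in SAM68 libraries, and from the end at 8 nt there were 95, 113 and 86 against 0, 0 and 0. No library had reads from both of these ends to the 63-base exon, and SAM68 library 3 had reads from neither. Added together, both ends gave 95, 113 and 86 reads in control and 62, 77 and 0 in SAM68 libraries (exact permutation p = 0.1 on the rpm scale).

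To the 120-base exon, the end at 0 nt had 57, 88 and 0 reads in control and 56, 76 and 0 in SAM68 libraries. The end at 8 nt, whose reads to the 63-base exon were absent from SAM68 cells, had 90, 48 and 121 reads in control and 0, 19 and 67 in SAM68 libraries. The end was therefore still read in 2 of the 3 SAM68 libraries. The end at 30 nt was read in every library to both exons, with 73, 45 and 51 against 38, 51 and 23 reads to the 63-base exon and 39, 21 and 48 against 18, 28 and 24 reads to the 120-base exon.

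From the end at 273 nt to the 63-base exon there were 0, 121 and 159 reads in control and 98, 121 and 0 in SAM68 libraries. To the 120-base exon it had 40, 40 and 24 reads against 0, 15 and 22. Of the 48 values of these 8 junctions, 13 were 0 (5 in control and 8 in SAM68 libraries), while the lowest value above 0 was 15. In 5 of the 8 junctions a library at 0 stood beside libraries of the same group with reads.

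**Figure D2:**
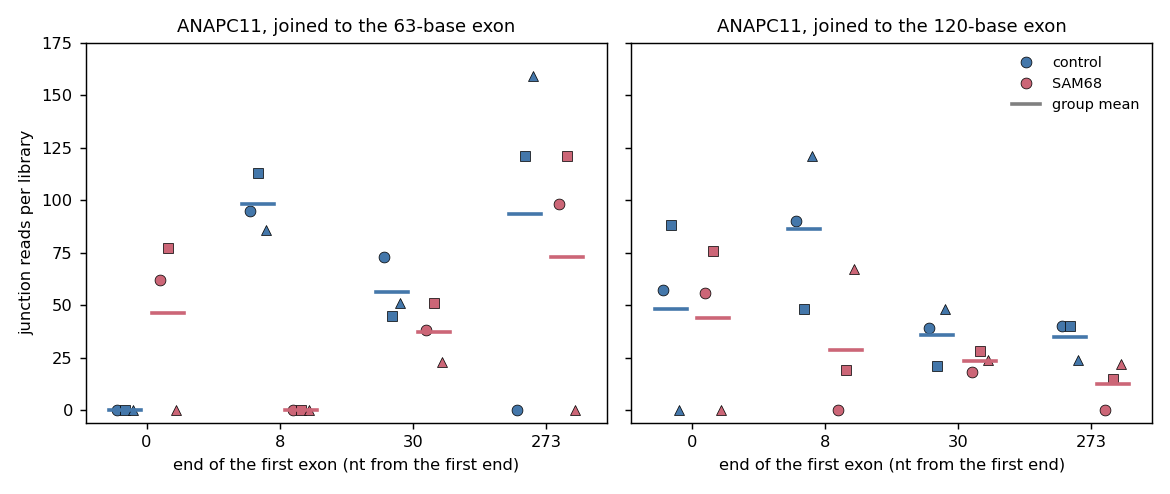
Junction reads per library (y axis) that join each first exon end of ANAPC11 (x axis, nucleotides from the first end) to the 63-base exon (left) and to the 120-base exon (right). Points are libraries (circle, square and triangle in list order) and lines are group means. The end at 8 nt has 86 to 113 reads to the 63-base exon in control and 0 in SAM68 libraries, and values of 0 stand beside values up to 159.

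As shares of the reads of all 4 ends, the end at 8 nt had 47.0%, 33.8% and 42.3% in control and 0.0%, 4.91% and 49.3% in SAM68 libraries. Its mean share was 41.0% ± 6.66 (SD, n = 3) and 18.1% ± 27.1 (SD, n = 3), and the groups overlapped (exact permutation p = 0.4, adjusted over the 4 ends 0.667). The end at 0 nt took 11.0% ± 9.72 in control and 27.6% ± 24.0 in SAM68 libraries, the end at 30 nt 20.9% ± 7.30 and 25.2% ± 8.12, and the end at 273 nt 27.1% ± 14.8 and 29.1% ± 11.2 (SD, n = 3 for each). None of the 4 shares differed beyond the spread between libraries (exact permutation p of 0.4 to 0.8). In reads, the end at 8 nt had 185, 161 and 207 in control and 0, 19 and 67 in SAM68 libraries, or 30.7 ± 4.62 and 5.26 ± 6.33 rpm (SD, n = 3). Every control library was above every SAM68 library (exact permutation p = 0.1, adjusted over the 4 ends 0.4). The 4 ends together gave 394, 476 and 489 reads in control and 272, 387 and 136 in SAM68 libraries (exact permutation p = 0.2 on the rpm scale).

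From the 63-base exon of ANAPC11 onward the groups overlapped. The reads from the 63-base to the 120-base exon numbered 271, 288 and 255 in control and 278, 217 and 178 in SAM68 libraries. The 120-base exon with the start codon had a PSI of 99.3% ± 0.780 (SD, n = 3) in control and 99.4% ± 0.186 (SD, n = 3) in SAM68 cells. The junction from it to the next coding exon had 945, 762 and 783 reads against 892, 655 and 582 (exact permutation p = 0.4 on the rpm scale). Rare forms lay in coding sequence behind the start codon. The 120-base exon longer by 38 bases was at 0.819% ± 0.254 and 0.413% ± 0.369 (SD, n = 3; quasi-binomial test, adjusted p = 0.662), and an exon that starts at 81899242 was at 0.649% ± 0.304 and 0.354% ± 0.141 in its form of 86 bases and at 0.830% ± 0.630 and 0.559% ± 0.158 in that of 301 bases (SD, n = 3; quasi-binomial test, adjusted p = 0.565 for both). The 63-base exon with the end at 8 nt before it had a PSI of 73.3%, 84.9% and 65.6% against 100%, 88.5% and 64.3%, a difference of 9.65 points that was within the spread (quasi-binomial test, adjusted p = 0.565). That difference was 1.79 points without SAM68 library 1 and 19.65 points without SAM68 library 3.

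The other 112 events, of 8 genes, held no call. Their lowest adjusted p was 0.444 (quasi-binomial test), and the PSI changed by less than 5 points in 100 of them. An unadjusted p under 0.05 was found for 9 of the 135 events (6.7%), 4 each in ANAPC11 and CDC27 and 1 in ANAPC16, against 8.42% of all events tested. The groups did not overlap in 8 of the 135 events (5.9%), against 6.13% of all events. Changes of at least 10 points stood in 9 of the 135 (6.7%), against 7.17% of all events. All 9 had a mean of at most 59.8 reads, and in 6 of them 1 form had no read in a library while another library of the same group had at least 10. This unevenness was present in 18 of the 135 events (13.3%) and in 10 of the 23 events of ANAPC11, against 4.34% of all events, and its part in the results was not tested. Among the 104 events that averaged 100 reads or more, the largest change was 9.65 points.

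**Figure D3:**
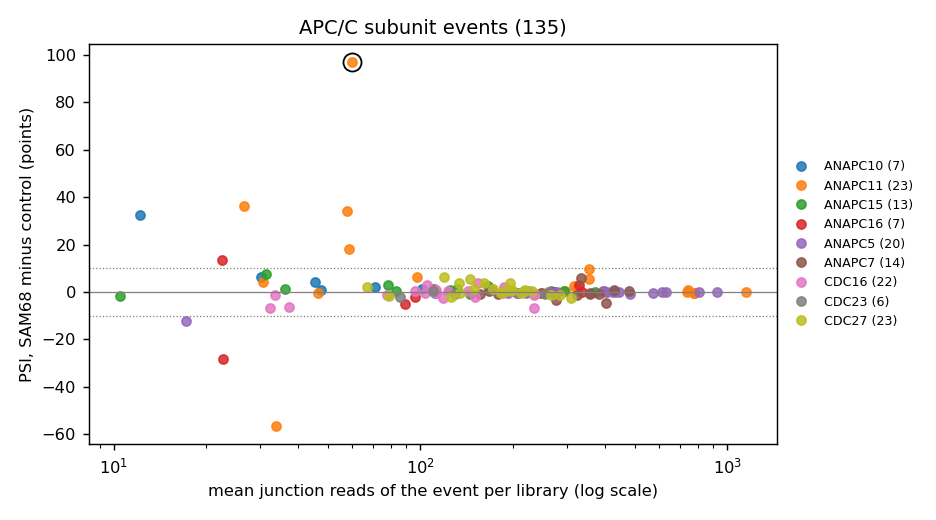
Difference in PSI, SAM68 minus control, in points (y axis) against the mean junction reads of the event per library on a log scale (x axis) for the 135 events, coloured by gene with the number of events in brackets. The ring marks the called event at 97.0 points, and the dotted lines stand at 10 points. The 9 events beyond the dotted lines all have a mean of at most 59.8 reads.

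The TPR arm was read as mostly constitutive exons. Over all genes, 72 SE events concern exons of the canonical transcripts, and 65 of them had a mean PSI over 90%. CDC27 (ENSG00000004897.11, chromosome 17, 47117703 to 47189422, - strand) encodes the TPR subunit that binds the tails of the co-activators. It had 23 events, and none was called. Of its exon sequence, 40.0% of all 31-base words also occur elsewhere in the genome, and 8 of its 35 junctions occur there as unspliced sequence, so that its read counts are uncertain where such copies share reads.

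Of the alternative splice sites of CDC27, 2 are shown because both forms were common in every library; they were chosen after their values were seen. The capitals mark the bases that only the longer form holds, with 20 intron bases before them and 20 exon bases behind (GRCh38, - strand).
CDC27 exon 12, 3 bases, chr17:47142003-47142045: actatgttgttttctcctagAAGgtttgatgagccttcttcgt
CDC27, 18 bases, chr17:47151899-47151956: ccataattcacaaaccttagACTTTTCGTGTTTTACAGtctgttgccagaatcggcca
Both insertions lie in coding sequence and have a length that keeps the reading frame. The form with the 3 bases had 34.6%, 44.8% and 39.6% in control and 45.3%, 51.2% and 39.5% in SAM68 libraries. The groups overlapped, and the difference of 5.67 points did not pass the test (quasi-binomial test, adjusted p = 0.695). The form with the 18 bases had 13.5%, 17.2% and 21.6% against 22.8%, 16.6% and 24.0%, a difference of 3.69 points (quasi-binomial test, adjusted p = 0.708). The junction of the form without the 18 bases is also found unspliced at 2 other places in the genome.

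The lowest p of CDC27 belonged to its 76-base exon 2, which was included in 100% of reads in each control library and in 100%, 97.0% and 98.9% in SAM68 libraries. The skipping form had 0 reads in control and 0, 5 and 2 in SAM68 libraries (quasi-binomial test, adjusted p = 0.486). Both inclusion junctions of this exon have unspliced copies in the genome, at 7 and 4 places. Skipping of the neighbouring exons 3 and 4 together went the other way, with 6, 2 and 7 reads in control and 1, 0 and 2 in SAM68 libraries (quasi-binomial test, adjusted p = 0.565 for each exon). The event with the most reads was an MXE row of exons 4 and 3, with 62.8% ± 5.57 (SD, n = 3) in control and 60.3% ± 4.25 (SD, n = 3) in SAM68 cells. Both exons stand in the canonical transcript. The same holds for 12 of the 17 MXE events, so that their PSI compares reads at 2 exons of 1 mRNA rather than a choice between them. In all 17 MXE events both exons stand together in at least 1 annotated transcript.

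CDC16 (ENSG00000130177.15, chromosome 13, 114234887 to 114272723, + strand), the TPR subunit next to CDC27 in the arm, had 22 events and no call. Its 55-base coding exon 2 was the most read cassette exon with both forms in use among its events, was picked with its values in view and is shown in capitals with 20 intron bases before and 10 behind it (GRCh38, + strand).
CDC16 exon 2, chr13:114236625-114236709: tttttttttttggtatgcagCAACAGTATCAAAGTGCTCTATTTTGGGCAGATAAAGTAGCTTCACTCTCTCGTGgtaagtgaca
Its PSI was 69.0%, 68.7% and 72.7% in control and 82.7%, 65.0% and 73.9% in SAM68 libraries. The SAM68 libraries lay on both sides of the control libraries, and the difference was 3.73 points (quasi-binomial test, adjusted p = 0.565). The length of this exon is no multiple of 3 bases, so that skipping changes the frame. The lowest p of CDC16 was that of exon 12, with 0 skipping reads in control and 1, 2 and 0 in SAM68 libraries (PSI 100% against 98.9% ± 1.16, SD, n = 3; quasi-binomial test, adjusted p = 0.565). Its most read event, exon 13, was at 95.0% ± 3.26 and 94.0% ± 2.69 (SD, n = 3). The MXE row of exons 12 and 13, which both stand in the canonical transcript, had 52.3%, 53.9% and 60.8% against 47.3%, 48.9% and 51.1%, groups that did not overlap (quasi-binomial test, adjusted p = 0.655).

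ANAPC7 (ENSG00000196510.12, chromosome 12, 110372900 to 110403730, - strand) encodes the outermost TPR subunit, and all 14 of its events missed the threshold. Exon 2, with the most reads, was included in 99.8% ± 0.429 (SD, n = 3) of control and 100% of SAM68 reads. Exon 8 had the lowest p, with 0 skipping reads in control and 2, 0 and 2 in SAM68 libraries (PSI 100% against 99.3% ± 0.635, SD, n = 3; quasi-binomial test, adjusted p = 0.565). The most read event with a PSI between 10% and 90% was an MXE row of exons 9 and 7 of the same transcript, at 42.4% ± 1.56 and 37.7% ± 5.53 (SD, n = 3; quasi-binomial test, adjusted p = 0.719). CDC23 (ENSG00000094880.10, chromosome 5, 138187650 to 138213343, - strand), the TPR subunit at the base of the arm, had 6 events that moved by at most 1.93 points. Its exon 3, the most read, was at 99.7% ± 0.442 and 98.9% ± 1.24 (SD, n = 3), and a form of this exon shorter by 4 bases had 6 reads in control library 1 and 0 reads in the other 5 libraries (quasi-binomial test, adjusted p = 0.67). The digits of this list could also be grouped in another way.

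ANAPC16 (ENSG00000166295.8, chromosome 10, 72216000 to 72235860, + strand) is a small subunit bound to the TPR arm. Its coding exon 3 was included in 99.7% ± 0.528 of control and 99.8% ± 0.291 of SAM68 reads (SD, n = 3). A 326-base exon (72220054 to 72220379) that lies outside coding sequence in 1 annotated transcript and is not in the canonical one gave the lowest p of the gene. Of its 296 words of 31 bases, 243 also occur elsewhere in the genome, while none of the gene's 10 junctions occurs there unspliced. With the first exon that ends at 72216072 it was at 100% in all libraries but SAM68 library 2, which was at 14.9% with 20 skipping reads where the others had 0 (quasi-binomial test, adjusted p = 0.444). Without that library the difference was 0.0 points. With the longer first exon, which ends at 72216138, the same exon was at 17.6%, 27.2% and 10.8% in control and 20.5%, 7.56% and 12.8% in SAM68 libraries, and the groups overlapped (quasi-binomial test, adjusted p = 0.565). The most read ANAPC16 event with a PSI between 10% and 90%, an MXE row behind this exon, was at 13.2% ± 5.32 and 11.1% ± 5.94 (SD, n = 3).

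The platform subunit ANAPC5 (ENSG00000089053.12, chromosome 12, 121308245 to 121399896, - strand) had the deepest coverage after ANAPC11, and its alternative 3ʹ splice site in exon 10 was read on both forms in every library. The 39 bases in capitals are in the longer form only, keep the reading frame and are coding (GRCh38, - strand).
ANAPC5 exon 10, chr12:121328439-121328517: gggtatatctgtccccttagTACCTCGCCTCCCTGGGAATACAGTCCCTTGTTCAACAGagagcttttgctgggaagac
The longer form had 73.4%, 78.6% and 66.4% in control and 73.9%, 72.3% and 72.9% in SAM68 libraries. The means of 72.8% ± 6.13 and 73.0% ± 0.827 (SD, n = 3) differed by 0.233 points (quasi-binomial test, adjusted p = 0.995), and the SAM68 libraries lay within the range of the control libraries. The most read event, exon 16, was at 99.9% ± 0.131 and 99.8% ± 0.252 (SD, n = 3). Exon 9, with the lowest p, had 0 skipping reads in control and 0, 2 and 2 in SAM68 libraries, with 463 to 703 inclusion reads (quasi-binomial test, adjusted p = 0.565). Its 4 RI events held 1 change over 10 points, of -12.4 points at a mean of 17.2 reads, with PSI values from 36.6% to 100% in both groups together (quasi-binomial test, adjusted p = 0.962).

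ANAPC10 (ENSG00000164162.13, chromosome 4, 144831908 to 145098541, - strand) helps the co-activators to bind substrates. Its coding exon 2 was included in 100% of control and 99.4% ± 0.956 (SD, n = 3) of SAM68 reads. The 121-base coding exon 4 was skipped in part of the reads, with a PSI of 84.1%, 78.4% and 76.7% in control and 85.0%, 75.5% and 83.1% in SAM68 libraries (difference 1.45 points, quasi-binomial test, adjusted p = 0.798). A junction of the including form has 1 unspliced copy in the genome. A 73-base exon outside coding sequence near the start of the gene had the lowest p. It was at 6.45%, 0.0% and 4.90% against 11.4%, 9.22% and 9.34%, on 3, 0 and 2 against 6, 3 and 4 inclusion reads (quasi-binomial test, adjusted p = 0.565).

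ANAPC15 (ENSG00000110200.8, chromosome 11, 72106378 to 72112780, - strand) is needed to release the spindle checkpoint from the complex. Its coding exon 4 was at 99.9% ± 0.251 and 100%, and its alternative splice sites with both forms in common use lay before the start codon. A 12-base extension behind that exon was at 1.29% ± 0.838 and 1.60% ± 0.981 (SD, n = 3; quasi-binomial test, adjusted p = 0.849). The start of exon 3 that is longer by 5 bases is shown with these bases in capitals (GRCh38, - strand).
ANAPC15 exon 3, chr11:72111269-72111298: cctttccctcagTCTAGgagccatgtccac
This longer form had 67.7%, 66.6% and 56.6% in control and 64.3%, 63.4% and 70.8% in SAM68 libraries, and the groups overlapped (difference 2.52 points, quasi-binomial test, adjusted p = 0.754). When joined to the shorter form of exon 2, the same 5 bases were included at 91.2%, 94.6% and 84.2% against 93.1%, 100% and 100%, the lowest p of the gene, on 0 to 4 reads of the shorter form (quasi-binomial test, adjusted p = 0.681). The form of exon 2 that is longer by 30 bases was at 81.7% ± 4.84 and 80.7% ± 4.76 (SD, n = 3).

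**Figure D4:**
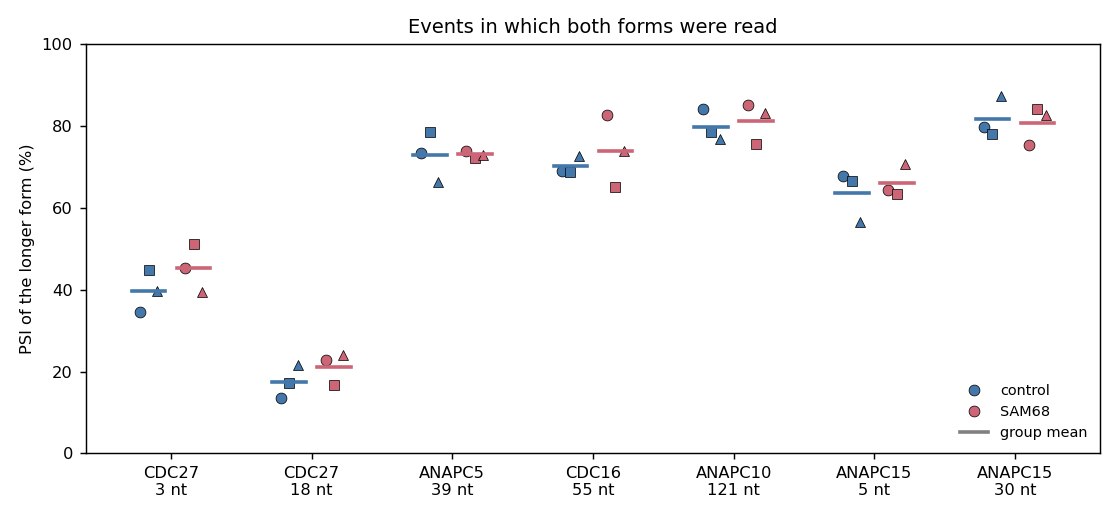
PSI in percent of the longer form (y axis) for 7 events in which both forms were read, named by gene and by the length of the alternative part in nucleotides (x axis). Points are libraries (circle, square and triangle in list order) and lines are group means. The groups overlap in each of the 7 events.

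The words TAAA and TAGGG were counted within 200 bases on each side of the SE exons, on the strand of the gene, because SAM68 is known to bind UAAA and hnRNP A1, another splicing regulator, UAGGG. TAAA stood beside 54 of the 61 exons of the 9 genes (88.5%), against 76.3% of 38685 SE exons tested in all genes, and TAGGG beside 15 (24.6%), against 25.0%. The 84-base exon of ANAPC11 had neither word in these windows, which did not reach the first exon ends of the gene. TAGGG stands in the printed sequence just behind the first of these ends and before the next one. The ends were not part of the count. These counts describe letters and not binding.

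The amount of junction reads per gene was taken from the most read event of each gene, and no subunit gene was called, against 5 of 10147 genes (0.0493%) at the limits used (a log2 fold change of 1 or more in size, limma adjusted p under 0.05). The log2 fold changes of the 9 genes ran from -0.26 to 0.09, with a median of -0.01, beside -0.03 over all genes. CDC16 had 45.3, 45.2 and 40.3 rpm in control and 36.1, 34.5 and 38.0 rpm in SAM68 libraries. The groups did not overlap, and its log2 fold change of -0.26 ± 0.12 (SE of the estimate) did not pass the adjusted test (limma, adjusted p = 0.369). ANAPC11 had 228, 196 and 201 rpm against 207, 193 and 143 rpm, and SAM68 library 3 was the lowest (log2 fold change -0.22 ± 0.09, SE of the estimate; limma, adjusted p = 0.345). Without that library the log2 fold change of ANAPC11 was -0.06 (limma, adjusted p = 0.796). CDC16 and ANAPC11 were the 2 of 9 genes that had an unadjusted p under 0.05, against 12.1% of all genes. With library sizes by the trimmed mean of M-values none of the 9 did.

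ANAPC5 had 152 to 162 rpm in control and 145 to 171 rpm in SAM68 libraries, and ANAPC7 had 69.5 to 85.3 rpm and 81.4 to 84.8 rpm. ANAPC15 was at 57.6 to 66.1 rpm and 64.0 to 66.6 rpm, ANAPC16 at 53.5 to 59.0 rpm and 56.5 to 57.0 rpm, and CDC23 at 41.0 to 44.3 rpm and 40.7 to 47.5 rpm. CDC27 had 50.4 to 59.8 rpm in control and 38.7 to 59.8 rpm in SAM68 libraries, and ANAPC10 had 16.0 to 22.6 rpm and 13.8 to 21.6 rpm. The groups overlapped in each of these 7 genes. Junction reads of different genes come from junctions of different lengths, so that levels were not compared between genes. In such bulk samples, fewer cells with an mRNA and less of it per cell cannot be told apart.

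**Figure D5:**
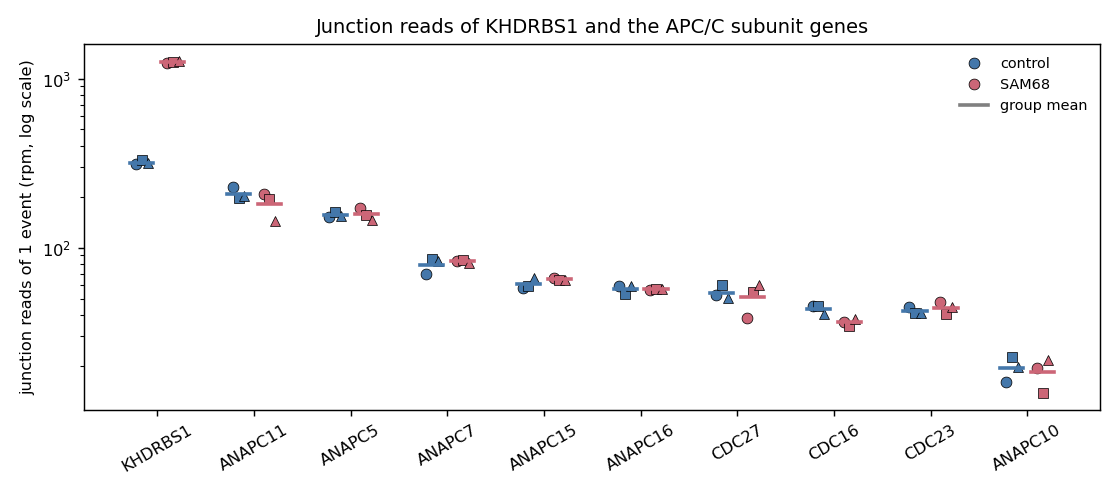
Junction reads in rpm of the most read event (y axis, log scale) of KHDRBS1 and the 9 APC/C subunit genes (x axis). Points are libraries (circle, square and triangle in list order) and lines are group means. KHDRBS1 stands at 311 to 328 rpm in control and 1230 to 1276 rpm in SAM68 libraries, and the groups of the subunit genes overlap except for CDC16.

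The other genes of the pathway held no called event. The 4 subunits outside the 10 genes had 26 tested events, the 5 co-activators and E2 enzymes 27, the inhibitors and checkpoint partners 36, and the substrates 68. In the order of these lists, the unadjusted p was under 0.05 for 2, 1, 5 and 9 events (7.69%, 3.70%, 13.9% and 13.2%), against 8.42% of all events. The lowest p among the subunits was an alternative 5ʹ splice site of ANAPC4, a scaffold subunit, whose form longer by 3 bases was at 10.1%, 8.12% and 3.68% in control and 19.4%, 17.4% and 18.6% in SAM68 libraries, with no overlap and an adjusted p of 0.513 (quasi-binomial test). UBE2C, the E2 enzyme that starts ubiquitin chains, had an MXE row at 71.8% ± 2.39 and 77.4% ± 4.26 (SD, n = 3; adjusted p = 0.228, quasi-binomial test). In MAD1L1, which brings MAD2 to kinetochores, an exon was at 96.0% ± 2.03 and 100% (SD, n = 3; adjusted p = 0.393, quasi-binomial test). In TK1, a thymidine kinase and substrate, 1 SAM68 library had 21 skipping reads of an exon where the other 5 libraries had 0 (adjusted p = 0.363, quasi-binomial test).

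No gene of the 4 pathway lists reached a log2 fold change of 1 in its junction reads. An unadjusted p under 0.05 was found for 1 of 4 subunits (higher), 1 of 5 co-activators and E2 enzymes (higher), 3 of 8 inhibitors and checkpoint partners (all lower) and 3 of 14 substrates (2 higher and 1 lower), against 12.1% of all genes. The summed junction reads of the inhibitors and checkpoint partners were 662 to 687 rpm in control and 616 to 630 rpm in SAM68 libraries. In the other pathway lists the sums overlapped. They were 218 to 234 against 228 to 253 rpm for the subunits. The co-activators and E2 enzymes had 1006 to 1041 against 1022 to 1075 rpm, and the substrates 1855 to 1898 against 1846 to 1958 rpm. An adjusted p under 0.05 was found for BUB3, a mitotic checkpoint protein, at 197, 191 and 195 rpm in control and 152, 160 and 162 rpm in SAM68 libraries (log2 fold change -0.30 ± 0.07, SE of the estimate; limma, adjusted p = 0.04). PTTG1, which encodes securin, the substrate whose loss frees separase, was at 205, 238 and 234 rpm against 289, 265 and 268 rpm (log2 fold change 0.28 ± 0.07, SE of the estimate; limma, adjusted p = 0.0528). Both genes were chosen after their values were seen, and in each the groups did not overlap.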

How the data were processed

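RNA of 3 control and 3 SAM68 libraries was sequenced by the authors on an Illumina NovaSeq (paired ends). They trimmed the reads, aligned them with hisat2 to GRCh38 and listed events with rMATS. The submitters' processing notes name CASAVA 1.4, fastp 0.20.0 and HISAT2 2.1.0. Per the file headers, the deposited tables hold, for each group, lists of 3 junction read counts of both forms (whole counts without normalization), inclusion levels as fractions and effective lengths. The deposited tables also hold p-values, FDR values and level differences of the authors' own comparison, which were not used. The first list was taken as control because a plot of the study names it NC. The A3SS table had 275 lists with regrouped digits, of which 162 were recovered and 113 left out. A further 679 lists, 2 of them of the subunit genes, could be read in another way too and were kept as they stand.

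PSI was computed from counts over effective lengths. Events that averaged 10 reads or more (66395, of which 66394 gave a test) entered a quasi-binomial model with the group as term. Dispersions were moderated per event type (limma 3.58.1, squeezeVar, under R 4.3.3) and kept at or above 1, and Benjamini-Hochberg adjustment ran over the events of a type. Calls needed an adjusted p under 0.05 and a PSI change of at least 0.1. Gene reads (rpm of the most read event) were tested with limma on log2(rpm + 0.5), so fold changes of low genes are understated. Single values had exact permutation tests, two-sided. Intervals and floors of 3 reads cover counting error only. Exons were checked against GRCh38 and GENCODE 44, and copies were exact matches of 31 bases. The fits were tested on simulated data.

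The subunit genes and gene lists were chosen with earlier results of these data known. Given in full are called events and, for each gene, the event with the most reads, that with the lowest p and the most read one with a mean PSI of 0.1 to 0.9. Genes outside the 10 are named where they hold the lowest p of their list. All other names were picked with their values in view. The start of the 63-base exon of ANAPC11 is not printed here.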

Additional observations from a re-analysis of the deposited data

How the results depend on the processing

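The call of the 84-base exon of ANAPC11 was kept with limma on the logit of PSI, a minimum of 20 reads, all types adjusted together, no normalization by length, PSI from pooled counts and no limit on the PSI difference. The number of called subunit events was 1 with the settings used and 0 with unmoderated dispersions (adjusted p of this exon 0.585), 0 without a minimum of reads (0.15), 3 with 1 dispersion shared by a type, an alternative added after seeing the data, and 4 with a likelihood ratio test on pooled counts, which ignores the spread between libraries and called 1353 of all 66394 events (2.04%). All event types together held 17 calls with the settings used, 3 with limma, 2 with unmoderated dispersions, 3 without a minimum and 93 with a shared dispersion. When any 1 of the 6 libraries was left out, 0 subunit events were called (0 to 0), with adjusted p-values of 0.639 to 0.676 for this exon and differences of 95.5 to 97.8 points, and 2 to 3 events were called over all genes. The pathway lists held 0 calls in every other setting and 4 with the likelihood ratio test. No subunit gene was called by its junction reads in any setting run, and the log2 fold change of KHDRBS1 was 1.94 to 2.01 over them.

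Differences that turned in sign were all uncalled. With all events of a gene summed, the log2 fold change was 0.042 for ANAPC10 and -0.0183 for ANAPC5, and with library sizes by the trimmed mean of M-values it was 0.0235 for ANAPC16. With 1 library left out, the log2 fold change ran from -0.225 to 0.0926 for ANAPC10, from -0.0501 to 0.0695 for ANAPC5, from -0.228 to 0.0839 for CDC27, from -0.0239 to 0.123 for ANAPC7 and from -0.0558 to 0.0153 for ANAPC16. PSI differences then ran from -0.27 to 0.50 points for the 120-base exon of ANAPC11, -0.45 to 4.30 for exon 4 of ANAPC10, -2.98 to 3.13 for exon 10 of ANAPC5, -0.99 to 4.54 for exon 3 of ANAPC15, -4.79 to 0.61 for the MXE row of CDC27, -2.55 to 0.68 for exon 13 of CDC16, -0.17 to 0.30 for exon 3 of ANAPC16 and -4.12 to 1.30 for its MXE row. The causes were not tested. edgeR and DESeq2 were not run. No paired analysis was possible because the columns carry no replicate numbers.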
